A study of Mus musculus with 14 samples.

Results

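The genes that write and erase DNA methylation were followed at their own promoters in 6 clones of the mouse mammary carcinoma line 4T1. The set comprised 8 genes. Rows with the name of a gene of the set were taken from the promoter table, and 7 of the 8 genes had at least 1 row, giving 11 of the 21965 promoters measured. Dnmt1 had 3 promoters, Dnmt3a and Uhrf1 had 2 each, and Dnmt3b, Tet2, Tet3 and Tdg had 1 each. Tet1 was not analysed here. The promoters of a gene with several rows are called low, middle and high by their mean methylation level.

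Each clone had been grown from a single cell of 4T1 sorted by flow cytometry, in DMEM with serum. The intravasating clones, E and T, were those able to enter the blood vessels, and the non-intravasating clones were I, K, L and P. Both groups share the 4T1 background and culture, no clone carries a labelled gene change or treatment, and each line is 1 clone out of 23 tested as a pool, so that a group stands for 2 or 4 single-cell founders. Genomic DNA was treated with bisulfite, which converts unmethylated cytosine and spares methylated cytosine, and was sequenced genome-wide. The deposited level is a fraction from 0 (unmethylated) to 1 (fully methylated), with 1 value per clone and promoter, so a clone has no error of its own. Read depth behind the levels is unknown.

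Methyl groups sit mostly on cytosines followed by guanine (CpG sites). DNMT1 copies the mark onto the new strand after replication, guided by UHRF1, which binds DNA methylated on the old strand alone. DNMT3A and DNMT3B set the mark on unmethylated DNA. The TET enzymes oxidise methylcytosine, and TDG, thymine DNA glycosylase, cuts out the formyl and carboxyl forms so that repair can restore plain cytosine. Promoters rich in CpG sites are usually free of methylation in somatic cells, and methylation there goes with silencing.

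The RefSeq promoter windows of the writers with the most divergent levels, Dnmt1 and Dnmt3a, are shown first, followed by those of Dnmt3b and Tet2, whose levels lay above those of most promoters with as many CpG sites. Each window runs from 250 bases before to 50 bases after a transcript start in GRCm38.p6, 5′ to 3′ on the strand of the gene, with CpG sites in capitals.
Dnmt1 window with 33 CpG sites, chr9:20952574-20952873, minus strand: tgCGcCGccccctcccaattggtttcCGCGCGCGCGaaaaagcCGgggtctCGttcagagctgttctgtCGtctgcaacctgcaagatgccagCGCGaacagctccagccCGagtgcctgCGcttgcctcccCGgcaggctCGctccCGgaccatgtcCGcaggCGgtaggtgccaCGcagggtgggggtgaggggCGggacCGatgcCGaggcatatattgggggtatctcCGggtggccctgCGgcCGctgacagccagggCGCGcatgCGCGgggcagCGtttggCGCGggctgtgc
Dnmt1 window with 12 CpG sites, chr9:20952930-20953229, minus strand: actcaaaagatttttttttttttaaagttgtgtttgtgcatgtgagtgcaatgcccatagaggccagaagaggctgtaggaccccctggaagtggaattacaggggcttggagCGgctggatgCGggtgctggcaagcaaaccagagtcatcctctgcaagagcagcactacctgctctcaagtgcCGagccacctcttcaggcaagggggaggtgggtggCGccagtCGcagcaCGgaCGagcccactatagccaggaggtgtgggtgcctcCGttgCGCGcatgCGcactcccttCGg
Dnmt1 window with 2 CpG sites, chr9:20959839-20960138, minus strand: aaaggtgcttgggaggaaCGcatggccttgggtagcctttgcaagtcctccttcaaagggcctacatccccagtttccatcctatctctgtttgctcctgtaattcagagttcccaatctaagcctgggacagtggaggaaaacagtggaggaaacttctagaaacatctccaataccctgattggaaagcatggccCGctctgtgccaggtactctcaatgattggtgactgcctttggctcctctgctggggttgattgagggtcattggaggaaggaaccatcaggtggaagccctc
Dnmt3a window with 46 CpG sites, chr12:3806730-3807029, plus strand: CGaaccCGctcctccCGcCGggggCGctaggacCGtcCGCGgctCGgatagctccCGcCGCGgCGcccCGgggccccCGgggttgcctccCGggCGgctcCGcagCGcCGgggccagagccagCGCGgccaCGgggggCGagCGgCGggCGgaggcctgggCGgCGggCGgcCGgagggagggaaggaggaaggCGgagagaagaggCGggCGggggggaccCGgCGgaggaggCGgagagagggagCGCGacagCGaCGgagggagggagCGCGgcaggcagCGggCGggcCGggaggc
Dnmt3a window with 18 CpG sites, chr12:3891494-3891793, plus strand: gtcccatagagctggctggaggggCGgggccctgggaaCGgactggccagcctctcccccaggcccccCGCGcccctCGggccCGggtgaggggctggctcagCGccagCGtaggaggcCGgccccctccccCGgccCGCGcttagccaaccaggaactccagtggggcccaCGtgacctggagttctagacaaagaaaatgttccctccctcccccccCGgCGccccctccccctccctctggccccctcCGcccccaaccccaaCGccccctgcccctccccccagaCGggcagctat
Dnmt3b window with 30 CpG sites, chr2:153649199-153649498, plus strand: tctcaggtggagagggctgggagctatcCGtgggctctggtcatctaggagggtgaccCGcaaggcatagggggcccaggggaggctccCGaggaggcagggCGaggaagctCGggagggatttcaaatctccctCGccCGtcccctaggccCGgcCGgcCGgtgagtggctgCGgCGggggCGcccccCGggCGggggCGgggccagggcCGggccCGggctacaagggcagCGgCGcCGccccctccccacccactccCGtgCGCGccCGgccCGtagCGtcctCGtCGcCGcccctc
Tet2 window with 57 CpG sites, chr3:133544341-133544640, minus strand: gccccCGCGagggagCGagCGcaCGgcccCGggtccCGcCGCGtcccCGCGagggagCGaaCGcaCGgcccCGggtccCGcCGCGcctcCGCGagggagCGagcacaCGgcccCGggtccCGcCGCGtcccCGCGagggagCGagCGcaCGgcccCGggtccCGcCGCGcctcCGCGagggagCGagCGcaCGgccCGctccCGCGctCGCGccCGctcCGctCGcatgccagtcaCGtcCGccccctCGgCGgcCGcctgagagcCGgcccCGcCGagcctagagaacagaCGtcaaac

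The Dnmt1 windows range from CpG-dense to nearly bare. At least 33 CpG sites were found in 8.56% of all 32851 RefSeq windows, at least 12 in 39.6% and at least 2 in 85.9%. Of the Dnmt3a windows, the one with 46 sites belongs to the densest 1.65%, and the window further along the gene has 18 sites, a number reached by 29.7% of windows. The window of the second upstream start of Dnmt3a, chr12:3806910-3807209, overlaps the first and has 47 sites. The Tet2 window has 57 sites, a number reached by 0.152% of windows. The promoter table gives no coordinates and its promoter boundaries are not stated, so the measured levels of a gene with several promoters were not assigned to its starts.

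The maintenance methyltransferase gene Dnmt1 combined lightly and heavily methylated promoters in every clone. Its low promoter reached 0.0659 in E and 0.0733 in T, against 0.0657 in I, 0.0429 in K, 0.0542 in L and 0.0759 in P. The middle promoter reached 0.129 in E and 0.136 in T, against 0.1005 in I, 0.106 in K, 0.103 in L and 0.167 in P. At both, the intravasating clones lay inside the range of the others, and clone P was the highest of all 6. The high Dnmt1 promoter reached 0.844 in E and 0.803 in T, against 0.907 in I, 0.855 in K, 0.874 in L and 0.871 in P. Here both intravasating clones lay below all 4 others.

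Dnmt3a, one of the enzymes that set new methylation, had the lowest and the highest level of the whole set. Its low promoter was almost unmethylated, with 0.0225 in E and 0.00969 in T, against 0.0147 in I, 0.00891 in K, 0.0136 in L and 0.0134 in P. Its high promoter reached 0.916 in E and 0.906 in T, against 0.957 in I, 0.939 in K, 0.914 in L and 0.939 in P. The groups overlapped at both promoters, at the high one because clone L lay between E and T. As means over the 6 clones, the low promoter was at 0.0138 ± 0.00486 and the high one at 0.929 ± 0.0194 (SD, n = 6), where 4.51% and 98.9% of all promoters lay lower.

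Such a contrast within 1 gene was uncommon. Several promoters were listed for 1300 genes, with a median of 0.128 between the highest and the lowest mean level. The distance was 0.915 for Dnmt3a, and 5 of the 1300 genes, Dnmt3a among them, had one as wide. For Dnmt1 the distance was 0.796, with 90 genes as wide, and for Uhrf1 it was 0.0685, with 806 genes as wide. A distance of at least 0.5 was found in 21.7% of these genes. This comparison was chosen after the levels were seen and is given without a test.

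**Figure D1:**
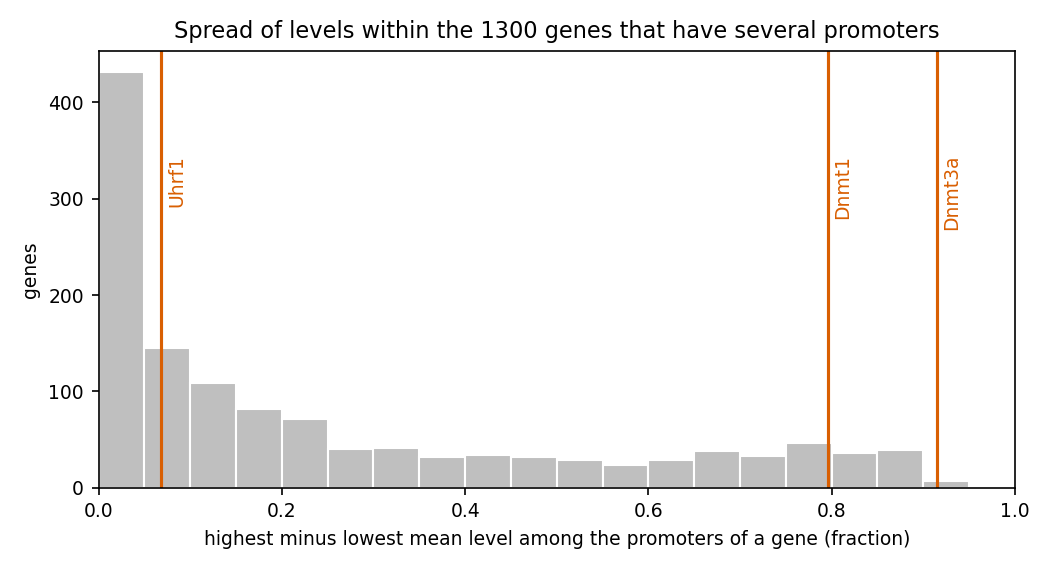
Histogram of the distance between the highest and the lowest mean promoter level (fraction, over 6 clones) in the 1300 genes with several promoters, with orange lines at the genes of the set. Dnmt3a, at 0.915, lies in the outermost filled class and Dnmt1 at 0.796, while Uhrf1, at 0.0685, lies among the bulk of genes.

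Dnmt3b, the other enzyme that sets new methylation, had an intermediate level and the widest variation among clones. It reached 0.293 in E and 0.403 in T, against 0.374 in I, 0.333 in K, 0.270 in L and 0.306 in P. The intravasating clones lay far apart, T highest of all 6 and E second lowest. The range over the clones was 0.133, and 28.6% of all promoters had a range at least as wide. Averaged over all promoters, T (0.377) and L (0.369) were the least methylated, with the 4 other clones between 0.402 and 0.412. At Dnmt3b these low-methylation clones stood at opposite ends, T at the top and L at the bottom.

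Uhrf1, whose product guides DNMT1, had low levels at both of its promoters. The low one reached 0.120 in E and 0.107 in T, against 0.105 in I, 0.126 in K, 0.103 in L and 0.144 in P, with full overlap of the groups. The high one reached 0.241 in E and 0.194 in T, against 0.169 in I, 0.141 in K, 0.180 in L and 0.190 in P. Both intravasating clones lay above all 4 others there, clone T by a margin far smaller than its distance to clone E.

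The eraser genes were lightly methylated. Tet2, a methylcytosine oxidase often mutated in blood cancers, reached 0.155 in E and 0.132 in T, against 0.140 in I, 0.215 in K, 0.201 in L and 0.158 in P. Clones K and L were the highest and the other 4 lay close together. Tet3, the family member abundant in the egg, reached 0.0902 in E and 0.121 in T, against 0.130 in I, 0.0894 in K, 0.0519 in L and 0.0971 in P, with clone L the lowest and the groups overlapping. The base excision gene Tdg reached 0.143 in E and 0.186 in T, against 0.166 in I, 0.158 in K, 0.146 in L and 0.150 in P. Clones E and T were its lowest and highest values. The table gives the same 6 levels for Gm9855, which RefSeq lists as a synonym of the Tdg pseudogene Tdg-ps2, also on chromosome 10. The levels of these near-copies cannot be told apart.

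**Figure D2:**
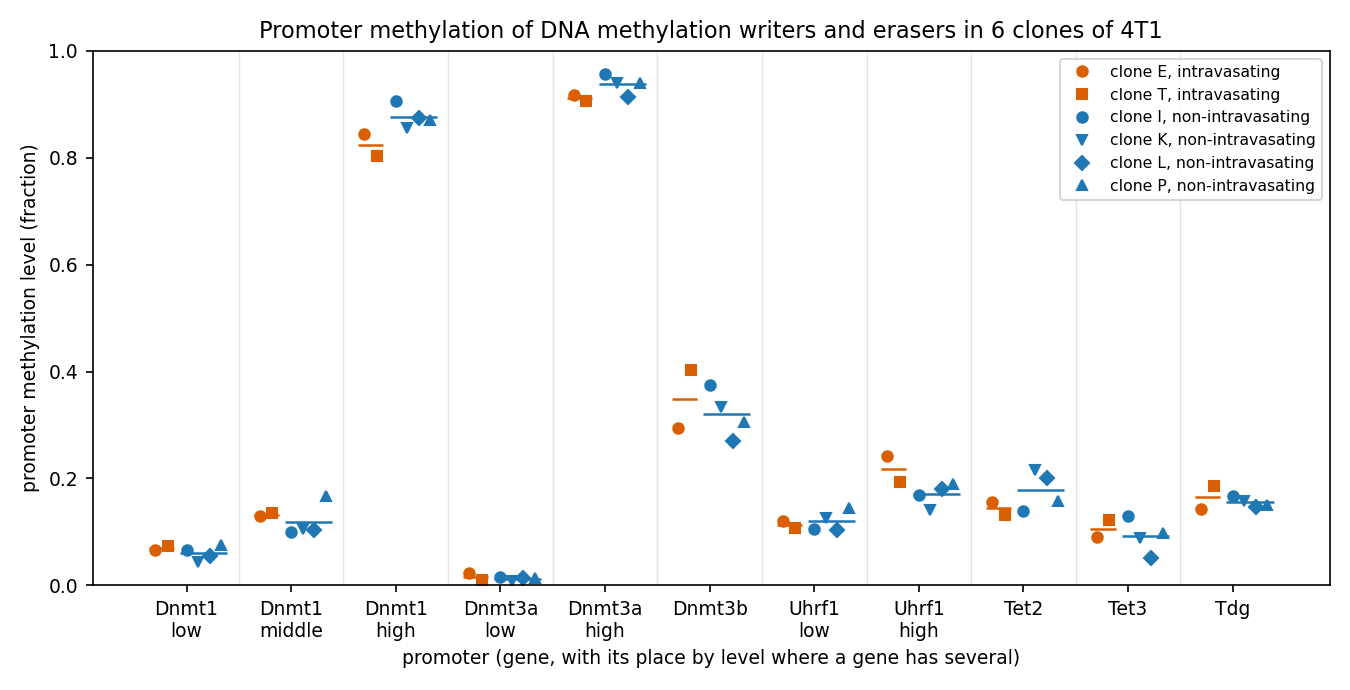
Promoter methylation level (fraction, vertical axis) of the 11 promoters in each clone, with orange symbols for the intravasating clones E and T, blue symbols for the non-intravasating clones I, K, L and P, and a line at each group mean. The high promoters of Dnmt1 and Dnmt3a lie above 0.80 in all 6 clones, Dnmt3b lies between 0.270 and 0.403, and the other 8 promoters stay at 0.241 or below.

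Ordered by the mean over 6 clones, the levels fell into steps. The low Dnmt3a promoter came first and did not overlap any other in its range over the clones. The low Dnmt1 promoter at 0.0630 ± 0.0124, Tet3 at 0.0966 ± 0.0276, the low Uhrf1 promoter at 0.117 ± 0.0158 and the middle Dnmt1 promoter at 0.123 ± 0.0257 followed (SD, n = 6 each). Next were Tdg at 0.158 ± 0.0161, Tet2 at 0.167 ± 0.0335 and the high Uhrf1 promoter at 0.186 ± 0.0330 (SD, n = 6 each). Each neighbouring pair of these 7 overlapped in clone ranges, so their order is not fixed beyond the spread of clones. Dnmt3b, at 0.330 ± 0.0508 (SD, n = 6), stood apart from its neighbours on both sides. The high Dnmt1 promoter, at 0.859 ± 0.0349 (SD, n = 6), just overlapped the high Dnmt3a promoter. A range of at least 0.1 over the clones was found at 2 of the 11 promoters, Dnmt3b and the high Dnmt1 promoter, against 43.8% of all promoters. Low levels leave less room to vary, and the part this plays was not tested.

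The levels were then compared between intravasating and non-intravasating clones, the contrast named in the study design. None of the 11 promoters was called (limma, Benjamini-Hochberg adjusted over all promoters, threshold 0.05), and none had an unadjusted limma p under 0.05. The share of all promoters called was 0.00911%, that is 2 of 21965, with 864 at an unadjusted p under 0.05. The adjusted p was 1.00 for each of the 11. Under some alternatives the unadjusted limma p fell below 0.05. For the high Dnmt1 promoter it was 0.0425 without the mean trend, 0.0437 after centring the clones on their medians, 0.0465 without clone E and 0.0405 without clone L. For the high Dnmt3a promoter it was 0.0293 without clone L. The limma adjusted p was 0.638 or more in each of these fits.

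At the high Dnmt1 promoter intravasating clones averaged 0.823 ± 0.0291 (SD, n = 2) and non-intravasating clones 0.877 ± 0.0217 (SD, n = 4), a difference of -0.0536 with a 95% limma interval of -0.107 to 0.000161. At the high Uhrf1 promoter intravasating clones averaged 0.218 ± 0.0331 (SD, n = 2) and non-intravasating clones 0.170 ± 0.0211 (SD, n = 4), a difference of 0.0475 with an interval of -0.0143 to 0.109. Without clone T the high Dnmt1 difference was -0.0330, and without clone E the high Uhrf1 difference was 0.0241. The groups did not overlap at these promoters, 2 of 11, where 11.2% of all promoters had none. Separation upwards was found at 1 of the 11, against 4.31% of all promoters, and separation downwards at 1 of the 11, against 6.89%. No test was made on these counts. Leaving out a clone makes separation easier for any promoter: without clone E the groups were separate at 6 of the 11 promoters, against 37.1% of all, without clone T at 4, against 34.0%, and without clone P at 4, against 15.9%. Without clone I they were separate at 3 of the 11, against 17.4%, without clone K at 2, against 15.9%, and without clone L at 3, against 5486 of the 21965 promoters. With the range required to be at least 0.1, the groups were separate at 1 promoter of the set and at 9.57% of all that pass.

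At the other promoters the intervals included 0 with room on both sides. At Tet2 intravasating clones averaged 0.144 ± 0.0164 (SD, n = 2) and non-intravasating clones 0.179 ± 0.0353 (SD, n = 4), a difference of -0.0348 (interval -0.0973 to 0.0277). At Dnmt3b the averages were 0.348 ± 0.0778 (SD, n = 2) for intravasating and 0.321 ± 0.0440 (SD, n = 4) for non-intravasating clones, a difference of 0.0277 with the widest interval of the set, -0.0901 to 0.145. The difference was -0.0259 for the high Dnmt3a promoter (-0.0670 to 0.0153) and 0.00345 for the low one (-0.0101 to 0.0170), the narrowest interval. Tet3 differed by 0.0138 (-0.0337 to 0.0613) and Tdg by 0.00966 (-0.0394 to 0.0587). The remaining differences were 0.0134 for the middle and 0.00995 for the low Dnmt1 promoter and -0.00605 for the low Uhrf1 promoter. Without clone T the differences turned to -0.0273 at Dnmt3b, -0.00180 at Tet3 and -0.0117 at Tdg, and without clone E that of the low Dnmt3a promoter turned to -0.00297. In all, 7 of the 11 differences were positive. Over all promoters, 57.5% had the lower mean in the intravasating clones. The mean was higher in these clones at 35 of the 59 promoters of pathway partners and readers described below. For the germline genes described below it was higher at 4 of 17 promoters. The direction is thus not particular to the set, and no test was made on these counts.

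**Figure D3:**
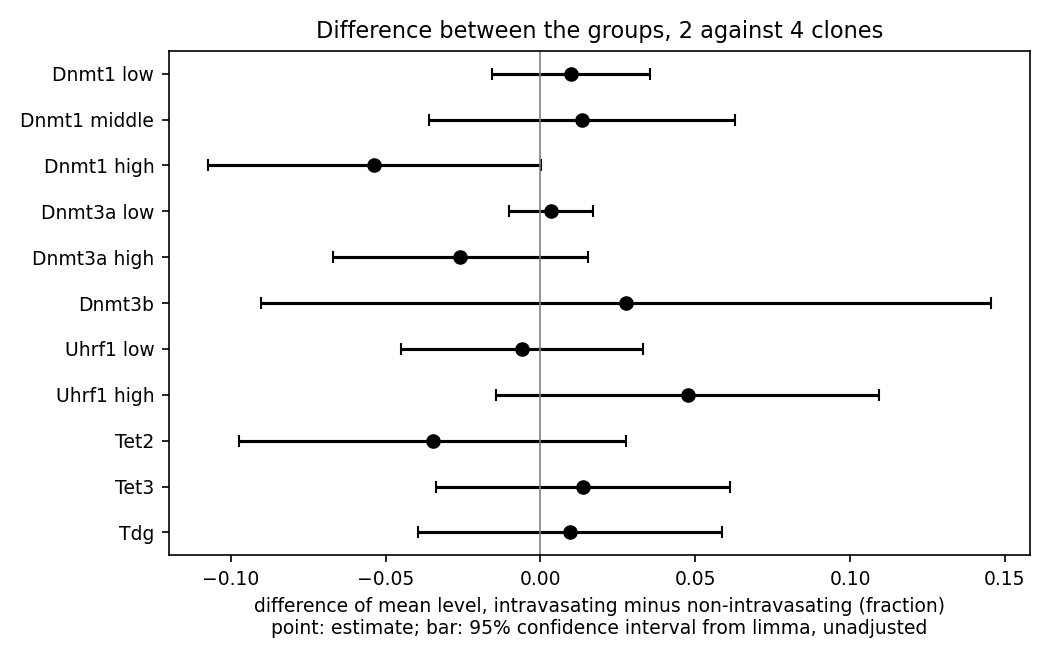
Difference of mean methylation level (fraction, intravasating minus non-intravasating clones, 2 against 4) at the 11 promoters, as points with 95% limma confidence intervals as bars. Every bar crosses 0, that of the high Dnmt1 promoter (-0.107 to 0.000161) at its upper end, and Dnmt3b has the widest.

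Levels were set beside the CpG content of the promoter for the 4 genes of the set with 1 row and 1 RefSeq window, among 11848 such genes. Across these genes the median level was 0.497 with up to 5 CpG sites, 0.503 with 6 to 15, 0.146 with 16 to 25 and 0.105 with 26 or more. Dnmt3b, with 30 sites, was more methylated than 77.9% of the 2059 genes within 5 sites of it, whose median was 0.114. Tet2 was above 66.2% of the 77 genes within 5 sites of its number, with a median of 0.0699. Tdg, with 26 sites and its level taken as its own, was above 57.8% of 2663 genes (median 0.124), and Tet3, with 22 sites, above 38.0% of 3050 genes (median 0.141). These percentages describe single genes and carry no test, and the measured promoter may extend beyond the 300 bases counted.

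**Figure D4:**
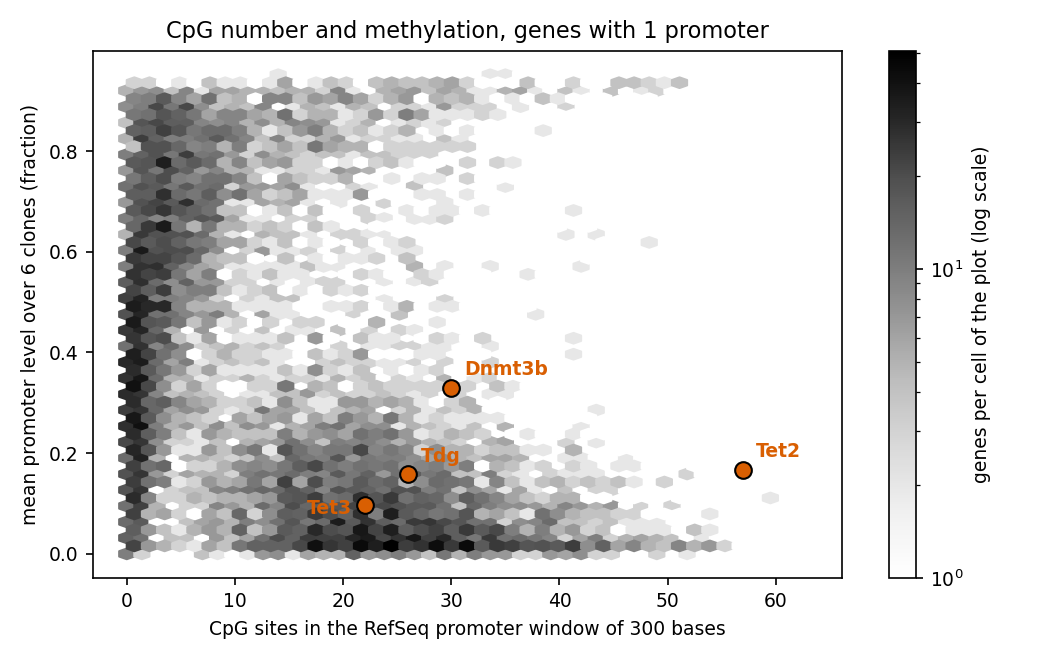
Mean promoter level over 6 clones (fraction, vertical axis) against the number of CpG sites in the RefSeq window of 300 bases for 11848 genes with 1 promoter, shaded by the number of genes on a log scale. Dnmt3b, at 0.330 with 30 sites, lies above the dense low band, and Tet2, at 0.167 with 57 sites, lies near the right edge.

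The promoters most like the variable members were found by the mean absolute difference of levels over the 6 clones. Closest to the high Dnmt1 promoter were those of the microRNA genes Mir24-1 and Mir3074-1, which share 1 set of levels in the table, at a mean difference of 0.00594. The ubiquitin protease gene Usp44 followed at 0.00675. Closest to Dnmt3b were 1700008A04Rik at 0.0189, Tmem44 at 0.0205 and Ffar2, a receptor gene for short-chain fatty acids, at 0.0225. With 21965 promoters and 6 clones, near matches arise in numbers and describe likeness of level only.

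The wider pathway was read from lists of partners of the writers, readers of the mark and partners of the erasers, 59 promoters of 50 genes in all. No promoter of these lists was called by limma in either direction. An unadjusted limma p under 0.05 was found at 3 of the 59, against 864 of all 21965 promoters. Their median level was 0.128, that of the 11 writer and eraser promoters 0.158 and that of all promoters 0.328. By list, the median was 0.289 for the 21 promoters of writer partners, 0.0796 for the 17 of readers and 0.128 for the 21 of eraser partners. The lowest and highest were the replication clamp gene Pcna (0.00751) and the histone methyltransferase gene Nsd1 (0.933) among writer partners. Among readers they were Ctcf (0.00820), the insulator protein gene, and Zbtb38 (0.941), a methyl-CpG-binding zinc finger gene. Among eraser partners they were Gadd45b (0.00735), a stress response gene, and the DNA glycosylase gene Neil2 (0.849).

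Cxxc5, which encodes a CXXC zinc finger protein that binds unmethylated CpG sites and has been tied to TET2, varied most in these lists. It reached 0.167 in E and 0.128 in T, against 0.346 in I, 0.380 in K, 0.251 in L and 0.553 in P. Both intravasating clones lay below all 4 others, and clone P alone was above 0.5. The difference was -0.235 with a 95% limma interval of -0.406 to -0.0646, and the limma adjusted p was 1.00, with 0.0532 to 1.00 over the alternatives. The lowest of these came from the fit on promoters with a range of at least 0.1, which Cxxc5 passes by its own spread. The other promoters with an unadjusted limma p under 0.05, named here after their values were seen, differed by less. The low promoter of Mat2b, a subunit gene of the enzyme that makes the methyl donor, averaged 0.0193 ± 0.000391 (SD, n = 2) over intravasating and 0.0475 ± 0.00969 (SD, n = 4) over non-intravasating clones. Trim28, the corepressor gene that recruits silencing to imprints and retroviral repeats, averaged 0.0473 ± 0.00327 (SD, n = 2) over intravasating and 0.0198 ± 0.0144 (SD, n = 4) over non-intravasating clones. The limma adjusted p was 1.00 for both. The high promoter of Mat2b went the other way, with overlap of the groups. It averaged 0.276 ± 0.0154 (SD, n = 2) over intravasating and 0.225 ± 0.0547 (SD, n = 4) over non-intravasating clones, a difference of 0.0517.

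Germline genes that somatic cells hold silent by promoter methylation served as known targets of the writers. Their 17 promoters, of 15 genes, were heavily methylated with a median of 0.891, between the sperm antigen gene Tex101 at 0.635 and Taf7l, a testis transcription factor gene, at 0.934. None was called by limma, and none had an unadjusted limma p under 0.05. Markers of cell types were read for their levels alone. Promoters of 6 epithelial marker genes had a median level of 0.155, against 0.794 for leukocyte, 0.607 for fibroblast and 0.806 for endothelial markers. All leukocyte and endothelial marker promoters lay above 0.5, as did 5 of the 7 fibroblast promoters, and none of the epithelial ones did. The epithelial and fibroblast lists overlapped. Krt19, an epithelial marker, was at 0.4996, above the fibroblast marker Col1a1 at 0.397. The low promoter of the fibroblast marker Pdgfra, at 0.0597, lay below every epithelial marker. None of these markers was called. An unadjusted limma p under 0.05 was found at 2 of the 6 epithelial promoters (limma adjusted p = 1.00 for both), against 864 of all 21965 promoters. These 2 are named here after their values were seen. The E-cadherin gene Cdh1 averaged 0.113 over intravasating and 0.0718 over non-intravasating clones, with no overlap. The tight junction gene Cldn4 averaged 0.172 over intravasating and 0.0607 over non-intravasating clones, with overlap. Clone E was at 0.256 there, while T, at 0.0880, lay below P, at 0.105. Of the 6 epithelial promoters, 4 had the higher mean in the intravasating clones and 2 the lower. The 2 were Krt8 (0.101 over intravasating against 0.157 over non-intravasating clones) and Krt18 (0.227 against 0.274).

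**Figure D5:**
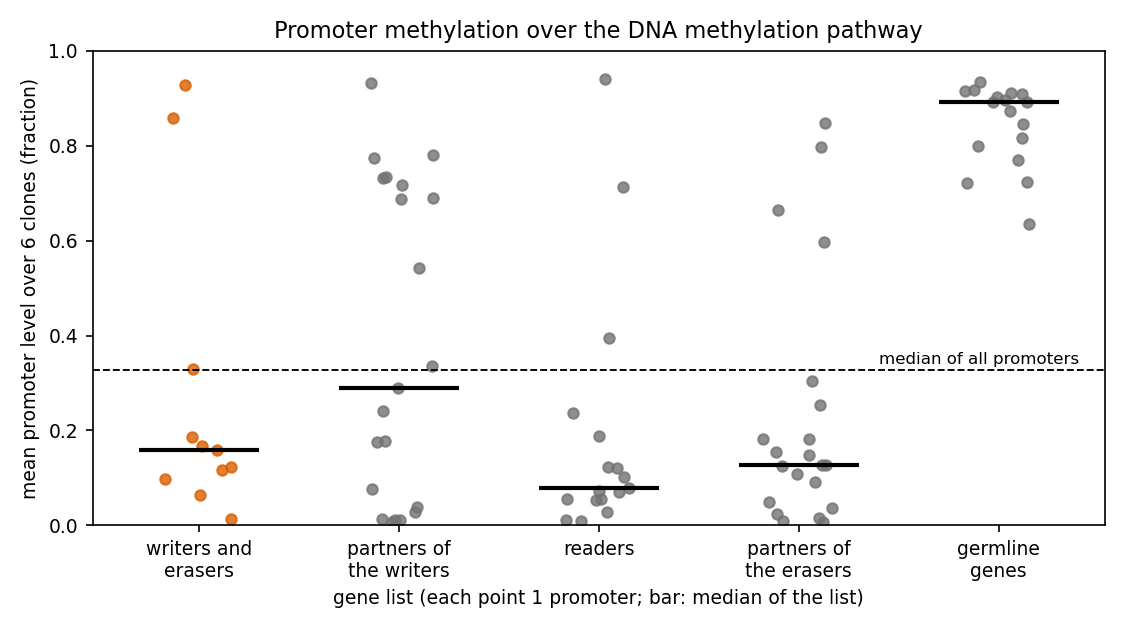
Mean promoter level over 6 clones (fraction) of each promoter of the writers and erasers (orange) and of the lists of writer partners, readers, eraser partners and germline genes (grey), with a bar at the median of each list and a dashed line at the median of all promoters, 0.328. The germline genes lie at 0.635 or above, and the median of the writers and erasers is 0.158.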

How the data were processed

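Bisulfite-converted DNA of 6 clones and of the parental line was sequenced as 76 nt paired-end reads in 2 rounds, 14 libraries in all, per the labels' protocols. The authors deposited promoter methylation as fractions, with 1 value per clone. Build mm10, bedtools and DESeq are named in the submitters' processing notes without a role. The alignment, the promoter boundaries and the merging of rounds are steps not given in the sources used here. No coverage came with the levels, so depth and its precision are unknown and no coverage minimum could be set. The parental line and the table of hypomethylated regions were not used.

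Of 22110 rows, 145 repeated a gene with the same levels and were counted once. Rows were matched by symbol, or else by a RefSeq synonym. Levels of 2 intravasating and 4 non-intravasating clones entered a limma fit over all promoters (limma 3.58.1, R 4.3.3, eBayes with mean trend), two-sided, with Benjamini-Hochberg adjustment. The fit was tested on simulated levels whose shifts were larger than any difference found in the set, so the test does not cover differences that small. Whether rounds came from separate cultures is not labelled, and the p-values measure the spread between clones. CpG sites were counted in RefSeq windows (GRCm38.p6), which held all 8 genes. Python 3.11.15 was used for the rest.

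Alternatives were the logit (levels bounded at 0.01 and 0.99) and arcsine scales, a fit without the trend, centring of clones on their medians, restriction to promoters whose range is at least 0.1, identical rows kept, an adjusted p under 0.10, and each clone left out. All promoters of the set were named. List genes were named if called, if their range was at least 0.2, or as the ends of a list, as were the 3 promoters nearest to each member with a range of at least 0.1. The members and lists were chosen with earlier results of these data known. Ehmt2, Lig3, Dazl, Hormad1 and Tek, which the lists also held, were not analysed here.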

Additional observations from a re-analysis of the deposited data

Results flagged for a closer look

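The middle Dnmt1 promoter was at 0.167 in clone P, far above the 3 other non-intravasating clones, which lay between 0.1005 and 0.106. The gap to the nearest of them took 0.918 of the range of the 4 clones, above the 95% critical value of Dixon's test. It was the only such value among the 12 groups tested, those of the 11 promoters and of Cxxc5, and chance gives about 1 in 20. Clone P was also the highest of the 6 clones at the low Dnmt1 promoter, at 0.0759, and at the low Uhrf1 promoter, at 0.144. At every other promoter of the set another clone was the highest.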

How the results depend on the processing

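No paired analysis was possible because the deposited columns give 1 value per clone and carry no round number. None of the 11 promoters was called under any alternative run that held it (smallest limma adjusted p 0.638), nor at an adjusted p under 0.10. Only the high Dnmt1 promoter and Dnmt3b entered the run that required a range of at least 0.1. The fits without the mean trend, with identical rows kept and with the range filter leave a difference unchanged, so they could not reverse one. Of 123 alternative differences, these included, 116 kept their direction. The 7 others were reversed, and those of Dnmt3b and Tdg without clone T were about as large as the differences they reversed. The low Uhrf1 promoter turned to 0.00140 after centring, and it ranged from -0.0122 to 0.00218 with each clone left out. With each clone left out the differences ranged from -0.00297 to 0.00987 for the low Dnmt3a promoter, -0.0273 to 0.0826 for Dnmt3b, -0.00180 to 0.0293 for Tet3 and -0.0117 to 0.0311 for Tdg. They ranged from 0.00435 to 0.0154 for the low, 0.00725 to 0.0293 for the middle and -0.0742 to -0.0330 for the high Dnmt1 promoter, 0.0241 to 0.0709 for the high Uhrf1 promoter, -0.0335 to -0.0192 for the high Dnmt3a promoter and -0.0477 to -0.0227 for Tet2.

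The count of separated promoters in the set was 1 when the range had to be at least 0.1, a filter that drops the high Uhrf1 promoter, and 2 to 6 with each clone left out. The count of all promoters called was 0 without the mean trend, against 2 as reported, 5 after centring, 25 with a range of at least 0.1, and 0 to 4 with each clone left out. The causes were not tested. After centring, the range over the clones widened to 0.0604 for the low Dnmt1, 0.0551 for the low Dnmt3a, 0.118 for Tet2 and 0.0815 for Tdg. It also widened for the middle Dnmt1 (0.0843), Dnmt3b (0.149) and the low Uhrf1 (0.0545). The range narrowed for the high Dnmt1 (0.0788), the high Dnmt3a (0.0441), the high Uhrf1 (0.0909) and Tet3 (0.0699). With each clone left out the range was 0.0355 to 0.0662 for the middle Dnmt1, 0.0631 to 0.104 for the high Dnmt1, 0.00584 to 0.0136 for the low Dnmt3a, 0.0226 to 0.0410 for the low Uhrf1, 0.0529 to 0.0997 for the high Uhrf1, 0.0404 to 0.0779 for Tet3 and 0.0230 to 0.0428 for Tdg. Within 10 CpG sites in place of 5, a choice made after the data were seen, Dnmt3b lay above 77.9%, Tet2 above 63.4%, Tdg above 55.7% and Tet3 above 36.1% of genes. Group sizes of 2 and 4 clones and the unknown depth limit what could be detected.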

Other observations

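Some partners of the writers that act mainly in germ cells and the early embryo, picked on reading the list, were methylated at their promoters in all 6 clones. Dnmt3l, the inactive cofactor of the DNMT3 enzymes, had promoters at 0.687 ± 0.0584 and 0.735 ± 0.0440 (SD, n = 6). Dppa3, which shields the maternal genome from oxidation, was at 0.690 ± 0.0488 (SD, n = 6). The 4 promoters of Zfp57, the imprint-guarding zinc finger gene, lay between 0.717 and 0.779 as means over the clones. Levels of other partners ran from low to high. Hells, a chromatin remodeller needed for methylation, was at 0.178 ± 0.0178 (SD, n = 6), Usp7, a stabiliser of DNMT1 and UHRF1, at 0.0123 ± 0.00431 (SD, n = 6), and the Polycomb methyltransferase gene Ezh2 at 0.0110 ± 0.00488 (SD, n = 6). Uhrf2, the paralogue of Uhrf1, was at 0.543 ± 0.0456 (SD, n = 6), above both Uhrf1 promoters, and Setdb1, a histone methyltransferase gene, at 0.335. The highest of the list was Nsd1, at 0.933.

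The low promoter of Kdm2b, a histone demethylase gene whose protein binds unmethylated CpG islands, was at 0.186 in clone L, against 0.0236 to 0.0738 in the 5 other clones. It was picked after its values were seen. Its range was 0.162, and 18.7% of all promoters had a range at least as wide. Clone L was also the highest at the middle Kdm2b promoter, at 0.151, but the lowest at the high one, at 0.192.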
